A study of Homo sapiens with 32 samples.

Results

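The comparison described here set MCF10A cells with wild-type JUNB (JUNB WT) after 72 h of TGFβ1 against the same cell clones after 24 h of TGFβ1, by RNA-seq. Its members were the 8 libraries of the WT cell clones 27 and 2 at these times, taken by clone, time and replication from the sample labels, out of 32 libraries in the series. MCF10A is an immortalized, non-tumorigenic human mammary epithelial cell line that was kept in medium with horse serum, EGF, hydrocortisone, cholera toxin and insulin. Each clone was cultured in 2 replications, so that 4 libraries stood at each time, and the libraries of 1 clone and 1 replication are called a series here and written as clone and replication (27-1, 27-2, 2-1 and 2-2). TGFβ1 was given at 5 ng/ml. The WT libraries at 6 h of TGFβ1 and with solvent served to place each gene's earlier course. The 8 libraries of the JUNB mut clones 1 and 65 at 24 and 72 h served to ask where WT cells differed. Both WT clones had passed through CRISPR/Cas9 editing and had been grown from single cells without a change at the locus, whereas in the mut clones an extended deletion in JUNB leaves a smaller polypeptide. Each genotype is thus represented by 2 clones, and nothing in the labels says that the replications were more than separate cultures, so that p-values measure the spread between these libraries.

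TGFβ1 is a cytokine that signals through serine/threonine kinase receptors and SMAD transcription factors. In mammary epithelial cells it is known both for arresting the cell cycle and for starting an epithelial-mesenchymal transition (EMT), in which cells lose junctions and keratin programs and build a fibronectin-rich matrix. The labels give the solvent libraries as 0 h, but by the study's description these plates received solvent for as long as the longest TGFβ1 treatment, and every plate was harvested at the same time after seeding. The libraries at 24 and 72 h therefore differ in when TGFβ1 was added to the culture and not in its age at harvest. By the study's methods TGFβ1 was also renewed in longer treatments, at an interval of more than 24 h, so that the dosing differs too. The length of exposure, this renewal and the state of the culture when TGFβ1 was added cannot be told apart.

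The 8 libraries held 41570218 to 54651906 counts each, and the 10 most abundant genes took 7.21 to 9.43% of them. A floor of 3 counts corresponded to 0.0549 to 0.0722 CPM (counts per 1e6 counts of the library). All 10 markers of basal mammary epithelium were detected, with a summed level of 28000 to 29400 CPM at 24 h and 27900 to 31300 CPM at 72 h. Of 6 fibroblast markers in the table the sum was 68.1 to 91.3 CPM at 24 h and 39 to 60.1 CPM at 72 h, almost all of it COL1A1 and DCN, while COL3A1 and COL1A2 were near the floor of 3 counts and did not pass the low-count filter. Of 4 leukocyte markers in the table PTPRC was at 0 in every library of both times. CD68 in contrast averaged 12.3 CPM with solvent and 20.1 CPM at both 24 and 72 h. Of 4 endothelial markers KDR averaged 5.54 CPM at 24 h and 3.27 CPM at 72 h. In a principal component analysis of the 16 WT libraries, the 4 libraries of series 27-2 stood apart on the second component (19.4% of the variance), with scores of 19.8 to 38.4 against -25.2 to 3.5 in the other series. Counts without this series are therefore given with the results.

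Between 24 and 72 h of TGFβ1, WT cells changed 2588 genes of the 14865 genes tested (17.4%), which are called DEGs (limma-voom with the series as a block, adjusted p-value under 0.05). Of these, 1356 were higher at 72 h (9.12%) and 1232 were lower (8.29%). This balance turned with the method, since TMM (trimmed mean of M-values) factors gave 1261 higher and 1412 lower genes, the edgeR quasi-likelihood test 1223 and 1428, and the DESeq2 Wald test 1412 and 1457. A list's count is read against these shares, and where its share is near them the count says nothing particular of that list. The changes were small: the median absolute log2 fold change of the DEGs was 0.358, and 220 DEGs reached 1, of which 63 were higher and 157 lower. In 2465 DEGs (95.2%) all 4 series moved in the same direction. For comparison, 3844 genes differed from solvent after 6 h (25.9%), 8858 after 24 h (59.6%) and 8918 after 72 h (60.0%), so that far more genes separated either late time from solvent than separated the late times from each other. The count of 2588 rested on the paired design: without the replicate block 1164 genes were called. It was 2009 without series 27-2, 1406 without the 24 h library of series 27-1 and 1644 without its 72 h library.

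Each DEG was placed by its earlier course against solvent. Of the 1356 genes that were higher at 72 than at 24 h, 940 had been lower than solvent at 24 h and moved back (6.32% of all genes tested), 190 continued a rise, 157 were called against solvent at 72 h but at neither 6 nor 24 h (1.06%), and 69 had another course. Of the 1232 genes that were lower at 72 than at 24 h, 390 had been higher than solvent at 24 h and moved back (2.62%), 433 continued a fall, 327 were called against solvent only at 72 h (2.2%), and 82 had another course. At 24 h itself 2548 genes were higher than solvent (17.1%) and 6310 were lower (42.4%). This excess of lower genes depended on the scaling. In clone 27 alone library sizes gave 5048 lower and 2135 higher genes at 24 h, and TMM factors 3343 and 3174. In clone 2 alone library sizes gave 5510 and 2127, and TMM factors 3574 and 3275. The comparison of 24 h with solvent and that of 72 with 24 h share the 24 h libraries, so that a library with a deviating 24 h value moves both, and these class sizes are counts without a test. Of the genes that moved back up, 520 were found without the replicate block, 643 without series 27-2, 513 without the 24 h library of series 27-1 and 596 without its 72 h library. Of those that moved back down, the same settings found 141, 258, 206 and 270.

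The genes that moved back did so in part. For the 940 genes that rose again, the median log2 change was -0.70 at 24 h and -0.31 at 72 h against solvent, and the median gene had recovered 55.5% of its 24 h change (quartiles 43.6 and 71.2%). At 72 h, 671 of them were still lower than solvent, 262 were not called and 7 were past solvent. For the 390 genes that fell again, the median recovery was 69.8% (quartiles 44.3 and 107%), with 160 genes still higher than solvent, 213 not called and 17 past solvent. Only genes chosen for moving back enter these percentages, and both changes in each ratio share the 24 h libraries. The percentages may therefore overstate the return, as may the recoveries given below for single genes.

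To look at recovery without shared libraries, genes were called at 24 h against solvent in 1 WT clone and their change from 24 to 72 h was read in the other clone. The 5048 genes that were lower at 24 h in clone 27 had a median log2 difference of 0.0115 in clone 2, with 0.0311 in replication 1 and -0.00256 in replication 2, beside -0.0143 over all genes. The 5510 genes that were lower at 24 h in clone 2 had a median difference of 0.0706 in clone 27, beside 0.00772 over all genes, and 62% of them moved up compared with 51.4% of all genes. For genes that were higher at 24 h the median differences were -0.0306 (2135 genes, calls from clone 27) and -0.0596 (2127 genes, calls from clone 2). For genes lower at 24 h the median return in a clone that had not been used to choose them was thus at most 0.0706 on the log2 scale.

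The classes also depend on the scaling. Library-size scaling, as used in the study, gave a median log2 change over all genes of -0.17 at 24 h and -0.19 at 72 h against solvent, which TMM factors moved to 0.00281 and -0.0302, while the median of 72 against 24 h stayed near 0 (-0.00361 with library sizes). With TMM factors 792 genes rose again and 602 fell again, 245 continued a rise and 312 continued a fall, and 1174 of the 1330 recovering genes kept their class. The late-only class was less firm: TMM factors gave 529 such genes, of which 235 were among the 484 found with library sizes. The change from 24 to 72 h itself kept its call with TMM factors in 131 of the 132 genes named by rule. Other settings cost more calls: 58 were lost without the replicate block, 12 without series 27-2 and 11 with DESeq2. Those lost without the block include JUNB, TNC, TIMP1, PPL, ALDH3A1, S100A8, S100A9, NOTCH3, CDKN1C and IL32.

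The cell-cycle genes moved back together. All 36 mitosis and G2/M genes of the list were DEGs and higher at 72 h, with log2 fold changes of 0.38 to 0.77 and a median of 0.60, beside a median of -0.00361 over all genes and 9.12% of all genes higher. Of 40 genes of DNA replication and the G1/S transition, 39 were higher, with a median of 0.75 and a maximum of 1.24, and E2F7, a repressor of the family, was the exception at 0.20. Every called member of both lists had been lower than solvent at 24 h. At 72 h, 29 of the mitosis genes and 33 of the replication genes were still lower than solvent with library-size scaling, and 14 and 27 with TMM factors. In bulk RNA, fewer cells of a kind, here dividing cells, and less RNA per cell cannot be told apart.

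RRM2, the regulated subunit of ribonucleotide reductase that makes the DNA precursors (GRCh38 chr2:10120698-10211725), had 52.7, 69.9, 68.3 and 45.6 CPM at 24 h in series 27-1, 27-2, 2-1 and 2-2, and 171, 157, 134 and 97.2 CPM at 72 h in the same order. Every 72 h library lay above every 24 h library, and the solvent libraries had 161, 176, 135 and 140 CPM. The log2 fold change was 1.24 ± 0.10 (SE, adjusted p = 2.69e-08), so that 89.2% of the 24 h change of -1.39 was recovered and no difference from solvent was called. CLSPN, which encodes the replication checkpoint adaptor claspin, went from 13.2, 18.4, 21.9 and 15.7 CPM to 41.6, 39.6, 36.2 and 26.0 CPM, again without overlap (1.09 ± 0.13, adjusted p = 2.3e-06). FAM111B and MCM10, a replication origin firing factor, rose by 1.30 ± 0.17 and 1.06 ± 0.16, with recoveries of 72.8 and 63.1%. Both were still below solvent with library-size scaling. With TMM factors MCM10 was still below solvent, and FAM111B was not called at 72 h.

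Among the mitosis genes, AURKB, the kinase of the chromosomal passenger complex, had 16.7, 21.0, 17.2 and 9.07 CPM at 24 h and 29.7, 28.2, 28.5 and 21.4 CPM at 72 h. The groups did not overlap and the log2 fold change was 0.77 ± 0.11 (adjusted p = 2.11e-05). MKI67, the proliferation antigen Ki-67, had 112, 149, 134 and 78.5 CPM at 24 h and 219, 223, 186 and 142 CPM at 72 h, where the 72 h library of series 2-2 fell below the 24 h library of series 27-2 although each series rose (0.72 ± 0.14, adjusted p = 0.000546). Series 2-2 had the lowest values of RRM2, AURKB and MKI67 at both times.

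**Figure D1:**
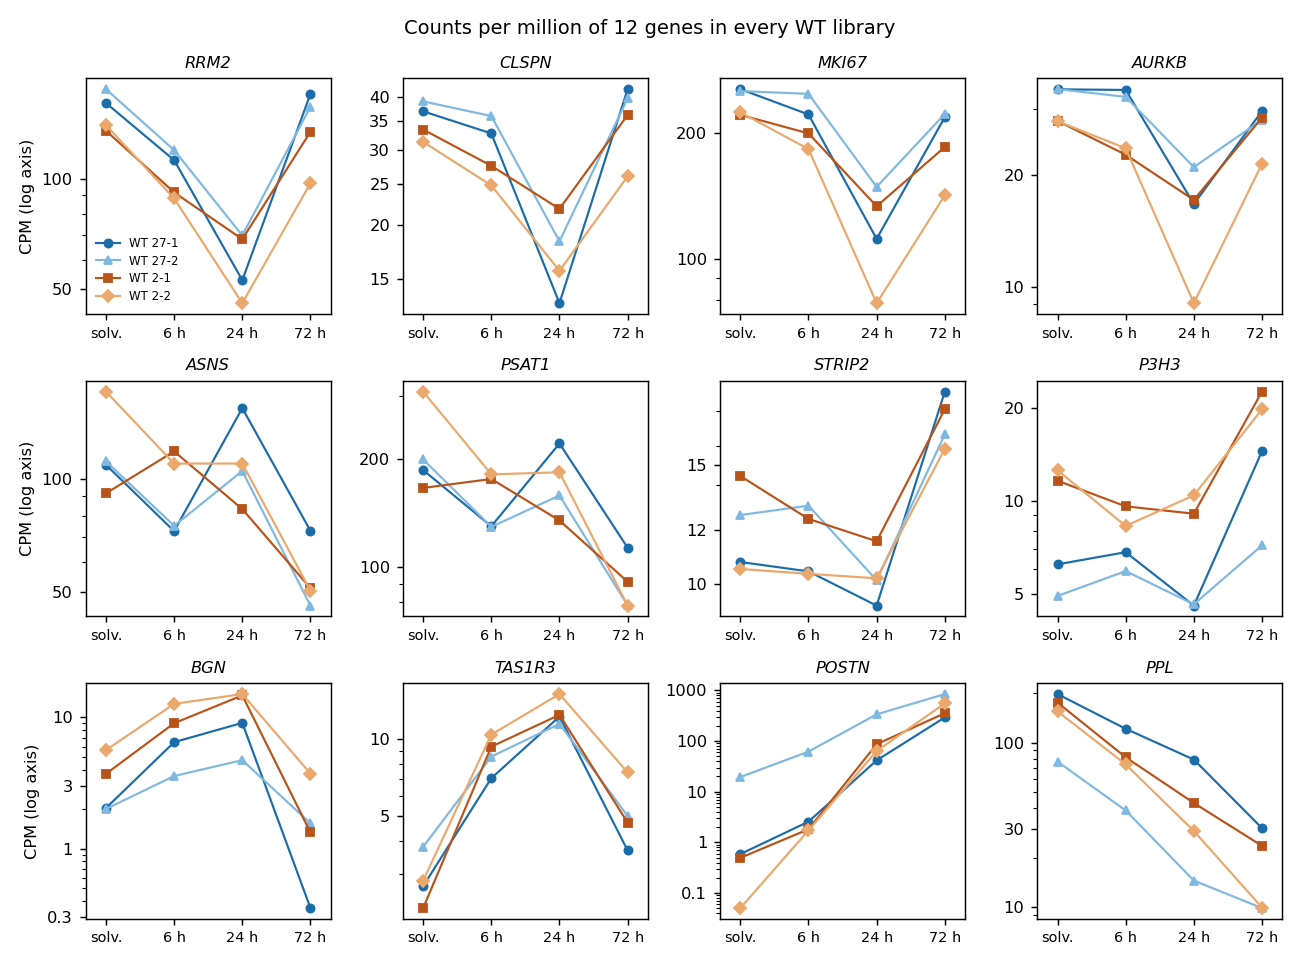
Abundance in CPM (log axis) of 12 genes in every WT library with solvent and after 6, 24 and 72 h of TGFβ1, with 1 line for each series. RRM2, CLSPN, MKI67 and AURKB dipped at 24 h and rose again in all 4 series, ASNS and PSAT1 fell after 24 h, STRIP2 and P3H3 rose after 24 h, BGN and TAS1R3 peaked at 24 h, and POSTN and PPL moved further in their 24 h direction.

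Promoters of these genes carry known elements, and a few are shown because the groups moved together. All promoters shown, here and below, were picked among called genes with a match in the bases printed. They therefore do not stand for their lists. Sequences upstream of the gene start were taken from RefSeq (GRCh38.p14, 11689 promoters of genes tested) and 250 bases were searched on both strands. The cell cycle genes homology region (CHR), TTTGAA, stood in 16 of 30 promoters of the tested mitosis genes (53.3%) and in 8.89% of all promoters. The CCAAT box stood in 23 of the 30 (76.7%) and in 34.4% of all promoters. In the last 120 bases before the start of BUB1B (chr15:40160949-40161068, plus strand), MKI67 (chr10:128126424-128126543, minus strand) and KIF23 (chr15:69414229-69414348, plus strand), capitals mark CHR and CCAAT matches, the latter reading ATTGG on this strand. In MKI67 a CHR and an ATTGG share 1 base.
BUB1B: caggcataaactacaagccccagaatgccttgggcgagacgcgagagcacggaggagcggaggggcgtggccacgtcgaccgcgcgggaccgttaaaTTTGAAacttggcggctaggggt
MKI67: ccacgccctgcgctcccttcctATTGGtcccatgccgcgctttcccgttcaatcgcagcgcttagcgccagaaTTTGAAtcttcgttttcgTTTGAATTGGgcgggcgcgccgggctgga
KIF23: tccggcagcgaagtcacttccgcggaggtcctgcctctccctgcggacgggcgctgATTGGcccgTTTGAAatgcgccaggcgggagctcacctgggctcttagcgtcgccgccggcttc

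In these genes the log2 fold change at 72 against 24 h was 0.72 ± 0.10 for BUB1B, a spindle checkpoint kinase whose locus overlaps PAK6, and 0.69 ± 0.08 for KIF23, a kinesin of cytokinesis. The E2F element TTTCCCGC stood in 8 of 35 promoters of the tested replication genes (22.9%) and in 2.13% of all promoters, and its variant TTTGGCGC in 5 of 35 (14.3%) and 0.813% of all promoters. The CCAAT box stood in 20 of the 35 (57.1%). The 120 bases before E2F1 (chr20:33686386-33686505, minus strand), GINS2 (chr16:85688955-85689074, minus strand) and E2F2 (chr1:23531234-23531353, minus strand) are shown with the E2F matches in capitals, which in GINS2 read GCGGGAAA on this strand. The E2F motifs were added after the values of the lists were known, and a match describes letters, not binding.
E2F1: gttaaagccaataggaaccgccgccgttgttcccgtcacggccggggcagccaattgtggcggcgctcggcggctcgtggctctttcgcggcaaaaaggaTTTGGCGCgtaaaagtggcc
GINS2: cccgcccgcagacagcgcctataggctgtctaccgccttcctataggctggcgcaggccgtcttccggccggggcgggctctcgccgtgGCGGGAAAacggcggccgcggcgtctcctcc
E2F2: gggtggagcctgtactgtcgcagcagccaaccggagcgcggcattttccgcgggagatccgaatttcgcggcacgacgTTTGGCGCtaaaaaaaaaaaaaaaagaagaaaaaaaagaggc

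E2F1, an activator of G1/S transcription, rose by 1.00 ± 0.14 (log2) and recovered 89.8% of its 24 h change. GINS2, a subunit of the replicative helicase, rose by 0.93 ± 0.13 and recovered 68.4%. E2F2 rose by 0.83 ± 0.26 but recovered 33.6%, since its 24 h change was -2.47. The AP-1 element TGACTCA stood in none of the 30 mitosis and none of the 35 replication promoters and in 2.96% of all promoters, and the TATA box TATAAA in 1 of each and in 6.08% of all promoters.

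The G1 regulators moved less uniformly. Of 17 tested, 6 were higher at 72 h and 2 lower, beside 9.12% and 8.29% of all genes. CDC25A, the phosphatase that activates CDK2, rose by 0.85 ± 0.14 and CDK2 by 0.55 ± 0.06, and at 72 h CDK2 was not called against solvent with library sizes and was past solvent with TMM factors. RBL1, which encodes the pocket protein p107, rose by 0.50 ± 0.10. The inhibitor gene CDKN1C fell by 0.96 on the log2 scale (SE 0.24, adjusted p = 0.00605), a late-only fall, while the values of MYC (0.09 ± 0.08, adjusted p = 0.45) and CDKN1B (0.00 ± 0.07, adjusted p = 0.98) did not pass.

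Genes for building ribosomes and genes for their proteins went opposite ways. Of 37 ribosome biogenesis genes, all lower than solvent at 24 h, 21 rose (median 0.23) and none fell, and 20 of the 21 were still below solvent at 72 h. NOP58, a core protein of box C/D small nucleolar particles, had 81.6, 82.5, 88.6 and 77.1 CPM at 24 h and 123, 110, 105 and 90.2 CPM at 72 h. All 72 h values exceeded the 24 h values, at a log2 fold change of 0.37 ± 0.06 (adjusted p = 0.000171). The gene hosts small nucleolar RNAs within its span. Of 40 cytosolic ribosomal protein genes, 20 fell and the other 20 did not pass, with a negative value in all 40 (median -0.26). RPL3 fell by 0.42 and RPS6 by 0.37 on the log2 scale (SE 0.06 each). Ribosomal protein genes have many near-identical processed pseudogenes, so that their counts are uncertain. The 21 biogenesis genes became 12 without series 27-2 and 12 without the replicate block, and 11 when the 24 h library of series 27-1, its 72 h library or the 24 h library of series 27-2 was left out. The 20 ribosomal protein genes became 13 without the block and 9 without the 24 h library of series 27-1, 12 without that of series 27-2, and 10 and 11 without the 72 h library of series 2-1 or 2-2.

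**Figure D2:**
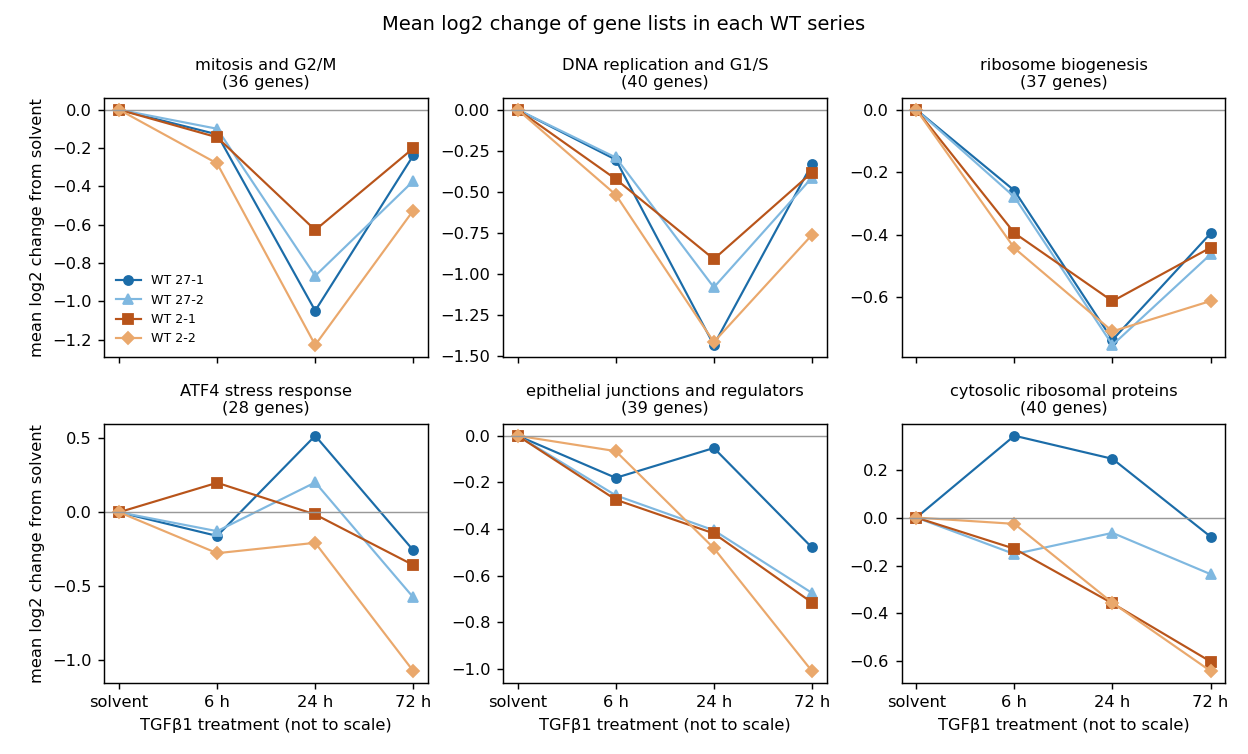
Mean log2 change from the solvent library of the same series, over the tested genes of 6 lists, with solvent and after 6, 24 and 72 h of TGFβ1 in each WT series. Mitosis and replication genes reached their lowest point at 24 h and rose by 0.43 to 1.10 in the 4 series, ribosome biogenesis genes rose by 0.10 to 0.34, and the ATF4, junction and ribosomal protein lists were lower at 72 than at 24 h in all 4 series.

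Targets of ATF4, the transcription factor of the amino acid and integrated stress response, fell late. Of 28 genes of this list 20 fell and none rose, with a median of -0.65, beside 8.29% of all genes lower. The mean over the list was 0.12 ± 0.31 above solvent at 24 h and -0.57 ± 0.36 at 72 h (log2, SD, n = 4 series), and the series changed by -0.769, -0.777, -0.343 and -0.861 in the order 27-1, 27-2, 2-1 and 2-2. Of the 20 genes, 9 were late-only, 7 moved back from a 24 h rise and 4 continued a fall. With TMM factors the numbers were 8, 10 and 2, and 20 genes were called lower with each scaling. The count was 19 without series 27-2, 13 without the 24 h library of series 27-1 and 8 without the replicate block.

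ASNS, asparagine synthetase, had 155, 105, 83.3 and 110 CPM at 24 h and 72.8, 46, 51.2 and 50.4 CPM at 72 h. No 72 h library reached the lowest 24 h library, and the log2 fold change was -1.03 ± 0.20 (adjusted p = 0.000676). PSAT1, an enzyme of serine synthesis, had 221, 158, 135 and 184 CPM at 24 h and 113, 78.2, 91 and 78.1 CPM at 72 h, also without overlap (-0.95 ± 0.18, adjusted p = 0.000546). SLC7A11, the cystine transporter, had 186, 126, 107 and 183 CPM at 24 h and 71.3, 52, 58.9 and 69.3 CPM at 72 h. It was late-only with library sizes and past solvent after a 24 h rise with TMM factors, and the fall itself was -1.24 ± 0.23 (adjusted p = 0.000402). Its locus overlaps an antisense gene. CHAC1, a glutathione-degrading enzyme, had 30.9, 23.3, 15.9 and 28.2 CPM at 24 h and 12, 7.4, 11 and 7.5 CPM at 72 h (-1.43 ± 0.41, adjusted p = 0.0148), and its call was lost without the block, without series 27-2 and without either of 2 single libraries. The genes ADM2 and PCK2, the mitochondrial phosphoenolpyruvate carboxykinase, fell by 1.29 and 1.22 on the log2 scale.

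ATF4 itself had 633, 606, 528 and 606 CPM at 24 h and 512, 463, 483 and 466 CPM at 72 h. The groups did not overlap, and the change was small (-0.30 ± 0.07, adjusted p = 0.00193). ATF4 was picked for mention after its values were seen and is late-only or moving back depending on the scaling. Members that did not pass include DDIT3 (-0.64 ± 0.30, adjusted p = 0.15), ATF3 (-0.23 ± 0.26, adjusted p = 0.61) and the amino acid transporter gene SLC7A5 (-0.06 ± 0.07, adjusted p = 0.67). The composite C/EBP-ATF element TGATGNAA, searched on both strands and added after the values were known, stood in 4 of 23 promoters of the list's tested genes (17.4%) and in 1.53% of all promoters. CCAAT stood in 13 of the 23 (56.5%), TGACTCA in 2 (8.7%) and TATAAA in 3 (13.0%). The 120 bases before ASNS (chr7:97872409-97872528, minus strand, GRCh38.p14, RefSeq) are shown with this element in capitals.
ASNS: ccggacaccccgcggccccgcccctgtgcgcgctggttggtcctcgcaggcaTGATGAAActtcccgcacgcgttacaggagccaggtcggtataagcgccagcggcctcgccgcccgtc

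Genes of antioxidant and xenobiotic defence under the transcription factor NRF2 fell in part. Of 28 tested, 13 fell and none rose (median -0.20). Of the 13, 6 continued a 24 h fall, 4 moved back from a 24 h rise and 1 was late-only. With TMM factors the numbers were 4, 7 and 2. ALDH3A1, an aldehyde dehydrogenase, had 25.3, 12.8, 20 and 44.8 CPM at 24 h and 6.92, 8.62, 9.91 and 9.28 CPM at 72 h. The highest 72 h library lay below the lowest 24 h library, and the fall (-1.59 ± 0.28, adjusted p = 0.000171) continued one of -3.11 at 24 h. The aldo-keto reductase gene AKR1C2 had 112, 123, 153 and 235 CPM at 24 h and 51.4, 57.7, 78.9 and 106 CPM at 72 h (-1.08 ± 0.11, adjusted p = 5.52e-07). AKR1C1 fell by 0.91 on the log2 scale (SE 0.13). Unlike ALDH3A1, AKR1C2 and AKR1C1 had been higher than solvent at 24 h (1.72 and 0.80 with TMM factors). At 72 h AKR1C2 was still higher than solvent and AKR1C1 was not called, with either scaling. These paralogs are nearly identical, so that reads may have been split between them. NFE2L2, which encodes NRF2, had a log2 value of -0.10 ± 0.07 (adjusted p = 0.35). The count of 13 was 8 without series 27-2 and 5 without the replicate block. Subunits of the respiratory chain showed 9 falls of 42, and genes of sterol and fatty acid synthesis 10 falls and 1 rise of 31. Of all genes 8.29% were lower and 9.12% higher. The sterol genes that fell included SREBF2, the master regulator of sterol synthesis, at -0.33 ± 0.05 (adjusted p = 1.78e-05).

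Late-only genes were those called against solvent at 72 h and not before. The 157 higher genes had a median log2 change of 0.30 between 24 and 72 h and of 0.02 at 24 h against solvent, and the 327 lower genes had medians of -0.38 and -0.03. All series agreed in direction for 149 and 309 of them. Requiring no earlier change even by unadjusted p left 127 and 278 genes. Without the replicate block 78 and 140 genes were late-only, and without the 24 h library of series 27-1 91 and 183, without its 72 h library 91 and 204.

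STRIP2, a subunit of a phosphatase-kinase complex, had 9.3, 10.1, 11.6 and 10.2 CPM at 24 h and 19.2, 16.6, 18.1 and 15.8 CPM at 72 h. Each 72 h library lay above each 24 h library (0.76 ± 0.10, adjusted p = 9.56e-06). P3H3, of the collagen prolyl 3-hydroxylase family, had 4.57, 4.62, 9.1 and 10.4 CPM at 24 h and 14.5, 7.18, 22.7 and 19.9 CPM at 72 h. Each series rose, but the 72 h value of series 27-2 lay below the 24 h values of clone 2 (1.16 ± 0.14, adjusted p = 2.06e-06). KLK14, a kallikrein protease of squamous epithelia, differed far more between series than between times, with 8.75, 0.0426, 1.4 and 0.866 CPM at 24 h and 22.3, 0.121, 15.9 and 2.26 CPM at 72 h (1.84 ± 0.27, adjusted p = 2.55e-05). Its 24 h value in series 27-2 was below the floor of 3 counts.

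The interferon-induced gene IFI6 rose mainly in the first replications, from 7.21, 5.32, 6.14 and 4.67 CPM to 18.8, 6.01, 12.9 and 5.37 CPM (0.81 ± 0.17, adjusted p = 0.00112). Series 27-1 and 2-1 accounted for most of it. CCBE1, a matrix protein of lymphatic growth factor processing, had 26.8, 55.8, 43.1 and 34.7 CPM at 24 h and 50.6, 88.1, 56.4 and 56 CPM at 72 h (0.67 ± 0.14, adjusted p = 0.00116), and with TMM factors it was a continued rise. Of 38 interferon-stimulated genes, 5 rose and 1 fell, beside 9.12% of all genes higher and 8.29% lower.

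Late-only falls included genes with very even libraries. PAQR6, a membrane progestin receptor, had 13.1, 9.86, 11.8 and 11.8 CPM at 24 h and 5.19, 4.51, 6.83 and 6.35 CPM at 72 h, without overlap (-1.03 ± 0.14, adjusted p = 9.93e-06). The transporter gene ABCA6 had 23.8, 13.1, 19.8 and 20.4 CPM at 24 h and 8.94, 9.1, 10 and 9.14 CPM at 72 h (-1.04 ± 0.15, adjusted p = 3.07e-05). TSPAN18, a tetraspanin whose locus overlaps TP53I11, had 37.9, 21.8, 27.9 and 28.8 CPM at 24 h and 16.4, 13.3, 16.8 and 11.6 CPM at 72 h (-1.005 ± 0.11, adjusted p = 1.31e-06). In all of these the highest 72 h library lay below the lowest 24 h library.

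Genes that peaked at 24 h and fell again included regulators of the TGFβ response. BGN encodes the matrix proteoglycan biglycan (GRCh38 chrX:153494980-153509546, overlapping HAUS7) and had 9.09, 4.73, 14.7 and 15.1 CPM at 24 h but 0.352, 1.56, 1.33 and 3.73 CPM at 72 h. The solvent libraries had 2.03, 2.01, 3.72 and 5.64 CPM, so that every series ended below its own solvent value. The change of -2.74 ± 0.30 (adjusted p = 9.61e-07) was the largest fall among the genes named, and BGN passed solvent (-1.06 at 72 h). RDH16, a retinol dehydrogenase, had 16.6, 6.94, 12.7 and 8.52 CPM at 24 h and 5.56, 2.14, 5.34 and 3.57 CPM at 72 h (-1.44 ± 0.23, adjusted p = 7.14e-05). TAS1R3, a taste receptor subunit whose locus overlaps DVL1, had 12.2, 11.4, 12.4 and 14.9 CPM at 24 h and 3.69, 5.02, 4.73 and 7.4 CPM at 72 h, with no overlap and a recovery of 60.2% (-1.30 ± 0.13, adjusted p = 5.52e-07).

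JUNB, the AP-1 subunit edited in the mut clones, had 297, 261, 249 and 277 CPM at 24 h and 165, 163, 173 and 175 CPM at 72 h in WT cells. The groups did not overlap, and 46.0% of the 24 h rise was lost (-0.68 ± 0.16, adjusted p = 0.00322). Its locus overlaps HOOK2 on the other strand. Of 18 genes of the AP-1 family list 4 fell and 1 rose, beside 8.29% and 9.12% of all genes. MAF fell (-0.92 ± 0.18), and FOSL1 rose by 0.33 ± 0.08 (a call lost without the block and without either library of series 27-1). JUN (-0.08 ± 0.15, adjusted p = 0.78) and FOSL2 (-0.08 ± 0.08, adjusted p = 0.56) did not pass. Of 39 genes of the TGFβ pathway and its feedback 8 fell and 1, the receptor gene TGFBR2, rose, beside the same shares of all genes. FST, the activin antagonist follistatin, fell by 1.08 on the log2 scale (SE 0.21, adjusted p = 0.000573) and ID2, an inhibitor of bHLH factors, by 1.09 (SE 0.30, adjusted p = 0.0107), the latter not called without the block, the 24 h library of series 2-1 or the 72 h library of series 27-1. SMAD3 had a value of 0.03 ± 0.09 (adjusted p = 0.86), and PMEPA1, a feedback inhibitor, of -0.02 ± 0.23 (adjusted p = 0.97).

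The matrix genes separated into genes that continued to rise and genes that fell again. Of 21 genes of fibronectin and matricellular proteins 7 rose and 3 fell. POSTN, which encodes periostin (GRCh38 chr13:37562583-37598844), had 41.7, 337, 86.7 and 63.7 CPM at 24 h and 293, 848, 356 and 555 CPM at 72 h. Each series rose, and the 24 h value of series 27-2 lay above the 72 h value of series 27-1 (2.29 ± 0.46, adjusted p = 0.000826). With the DESeq2 Wald test POSTN was not called (adjusted p = 0.0643). FN1, fibronectin, had 3715, 8688, 6301 and 7038 CPM at 24 h and 8840, 12648, 12169 and 17963 CPM at 72 h. The 72 h libraries were all above the 24 h libraries, but at this spread the value of 1.02 ± 0.39 did not pass (adjusted p = 0.071). MFAP5, a microfibril protein, rose by 1.14 ± 0.14, with 8.67, 10.4, 4.19 and 3.15 CPM at 24 h and 15.9, 21.2, 11.7 and 9.48 CPM at 72 h.

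In contrast, TNC, tenascin C, had 327, 166, 196 and 188 CPM at 24 h and 180, 96.8, 139 and 117 CPM at 72 h (-0.71 ± 0.17, adjusted p = 0.00416). Of 22 collagen chains 8 fell and 3 rose, beside 8.29% and 9.12% of all genes. COL1A1 had 73.4, 53.4, 65.9 and 52.8 CPM at 24 h and 52.6, 27.1, 46.3 and 43.5 CPM at 72 h. It remained above solvent after losing 19.1% of its 24 h rise (-0.55 ± 0.11, adjusted p = 0.000557). COL8A1 rose by 0.56 ± 0.14 and COL4A4 by 0.68 ± 0.13. Among 25 protease and inhibitor genes MMP10 (-1.74 ± 0.29) and TIMP1 (-0.58 ± 0.08) fell, and ADAMTS1 rose by 1.64 ± 0.17.

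Epithelial genes fell, while 1 of 16 EMT transcription factors passed the test. Of 39 genes of epithelial junctions and their regulators 20 fell and 1, ELF3, rose (median -0.32). Of the 20, 9 continued a 24 h fall, 8 fell from a 24 h rise and 3 were late-only. CDH1, E-cadherin, chosen after its values were seen, had 599, 205, 407 and 338 CPM at 24 h and 311, 147, 273 and 174 CPM at 72 h. Each series fell (-0.74 ± 0.09, adjusted p = 2.13e-06), and neither 6 nor 24 h was called against solvent, although with TMM factors 24 h was called higher. PPL, the desmosomal plakin periplakin, had 79.1, 14.5, 43 and 29.1 CPM at 24 h and 30.3, 9.87, 23.6 and 9.94 CPM at 72 h (-1.13 ± 0.19, adjusted p = 0.000128). GRHL3, a transcription factor of epithelial barrier formation, had 40.3, 11.8, 31.8 and 24.8 CPM at 24 h and 18.4, 5.06, 17.2 and 7.79 CPM at 72 h (-1.20 ± 0.18, adjusted p = 3.17e-05). The count of 20 became 17 without series 27-2, 9 without the 24 h library of series 27-1, 12 without the 72 h library of series 2-2 and 2 without the replicate block.

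Of 33 keratin and squamous differentiation genes 9 fell, among them S100A9 (-1.53 ± 0.31, adjusted p = 0.000827) and S100A8 (-1.51 ± 0.38, adjusted p = 0.00559), the subunits of calprotectin. The count was 0 without the replicate block, at 6 without series 27-2, 3 and 5 without the 24 h library of series 27-1 or 27-2, and 5 without the 72 h library of series 2-2. KRT5, the basal keratin, had a value of -0.03 ± 0.07 (adjusted p = 0.864). Among the EMT transcription factors RUNX2 passed, with a fall of 0.54 on the log2 scale (SE 0.18, adjusted p = 0.0309), a call lost in 7 of 16 alternative settings, namely without the block and without any 1 of 6 single libraries (adjusted p up to 0.113). The values of SNAI2 (-0.22 ± 0.12, adjusted p = 0.242), SNAI1 (-0.16 ± 0.17, adjusted p = 0.6) and ZEB1 (0.26 ± 0.12, adjusted p = 0.13) did not pass. CDH2, N-cadherin, had 0.27 ± 0.11 (adjusted p = 0.0865) and VIM, vimentin, -0.03 ± 0.07 (adjusted p = 0.83).

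Among the remaining large falls, NOTCH3, a receptor of cell fate signalling, fell by 1.46 on the log2 scale (SE 0.16, adjusted p = 7.57e-07), and IGFBP2, an IGF-binding protein, by 1.54 (SE 0.26, adjusted p = 0.000116). Both continued a fall seen at 24 h with library-size scaling. IGFBP3 (0.97 ± 0.28, adjusted p = 0.0166) and IGFBP7 (0.62 ± 0.08, adjusted p = 8.84e-06) rose, the call of IGFBP3 being lost in 6 of 16 alternative settings, among them those without the block or without series 27-2 (adjusted p up to 0.121). Of 26 YAP/TEAD target and pathway genes 5 rose and none fell, beside 9.12% of all genes higher and 8.29% lower. Among the 5 were AXL and CCN1, whose calls were lost without the replicate block (adjusted p = 0.274 and 0.242). Of 27 chemokine and interleukin genes 4 rose and 3 fell, again beside 9.12% and 8.29% of all genes. The value of IL11, a cytokine induced by TGFβ1, was -0.57 ± 0.17 (adjusted p = 0.0217), and its call was lost in 8 of 16 alternative settings, among them edgeR, DESeq2 and the fit without the block (adjusted p up to 0.304).

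The same comparison in mut cells gave 1404 DEGs (9.45%). Of the genes called in both genotypes, 694 moved in the same direction and 15 in opposite directions. The difference of the late changes between genotypes was tested as an interaction, mut minus WT, which called 120 genes (0.807%), 70 more positive and 50 more negative in mut cells. Without the replicate block 1 gene was called, so that these genes rest on the pairing within clones. The count also moved with single libraries. It was 36 or 46 without the WT 72 h library of series 27-1 or 2-1, and 59 or 43 without the WT 24 h library of series 27-1 or 2-2. It was 78 or 63 without the mut 24 h library of series 1-2 or 65-2, 69 without the mut 72 h library of series 65-1, and 174 without that of series 1-1.

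The mitosis list had a median of 0.33 in mut cells, with 25 of 36 genes higher, and no member differed between genotypes. In the replication list, with a mut median of 0.31 and 13 genes higher, the interaction called RRM2, CLSPN, CDC45 and RRM1, of which RRM2 alone passed in mut cells (log2 change 0.49, difference to WT -0.75, adjusted p = 0.0101). In the NRF2 list it called ALDH3A1, AKR1C1, AKR1C2, AKR1C3, NQO1 and ME1, each of which fell in WT cells, whereas in mut cells ME1 rose and the others did not pass. For AKR1C2 the log2 values were -1.08 (WT) and 0.22 (mut) (difference 1.30, adjusted p = 5.93e-05). ALDH3A1 had 85.8, 205, 105 and 121 CPM at 24 h and 94.5, 96.3, 112 and 132 CPM at 72 h in mut series 1-1, 1-2, 65-1 and 65-2, so that its mut libraries all lay above the WT libraries, and its interaction (adjusted p = 0.0326) was lost in 14 of 23 alternative settings. In the ATF4 list PHGDH and DDIT4 differed, and the mut median was -0.17 with 2 genes lower. The epithelial falls were not particular to WT cells. In mut cells 24 of 39 junction genes (median -0.39) and 19 of 33 keratin and squamous genes (median -0.89) were lower, against 20 and 9 in WT cells. In the junction list the interaction called ELF3 alone, with log2 values of 0.724 (WT) and -1.78 (mut) (difference -2.51, adjusted p = 0.00574). The list counts of the genotypes have unlike backgrounds, with 9.45% of all genes called in either direction in mut cells and 17.4% in WT cells.

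The kallikrein genes KLK5, KLK7 and KLK10 fell in mut cells and differed between genotypes. KLK10 had 110, 2.09, 23.5 and 10.2 CPM at 24 h and 135, 2.51, 75.1 and 14.2 CPM at 72 h in WT cells, where its change did not pass (0.73 ± 0.31, adjusted p = 0.109), and -1.65 on the log2 scale in mut cells. IGFL1, an IGF-like growth factor, had 39, 2.66, 11.7 and 2.14 CPM at 24 h and 60.8, 3.66, 25.4 and 2.42 CPM at 72 h in WT cells (0.74 ± 0.20, a call lost in 5 of 16 alternative settings with edgeR and DESeq2 among them) and changed by -1.45 in mut cells (difference -2.19, adjusted p = 0.000152). The WT series differed more from each other than the times did in both genes. IL32, a cytokine, rose in WT cells from 35.8, 32.3, 17.8 and 14.4 CPM to 89.3, 40.2, 38.2 and 25.4 CPM (0.89 ± 0.14, adjusted p = 4.23e-05), and its mut value was -0.56 (difference -1.45, adjusted p = 0.0102). BGN fell by 2.74 in WT and by 1.16 in mut cells (difference 1.57, adjusted p = 0.0158).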

How the data were processed

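The deposited table held raw counts of reads for each gene, made by the authors with Trimmomatic and with STAR for mapping and counting on GRCh38 (Ensembl version). Tool versions and the strand setting are not given in the sources used here, and the library kit keeps no strand, so that reads of overlapping and antisense genes cannot be told apart. Genes were named by GENCODE release 44 (17763 of 17788), which also gave gene coordinates, and 0 columns were left unused.

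Low-count genes were removed with filterByExpr (edgeR 4.0.16, at least 10 counts and a total of 15). Counts were scaled by library size and fitted by voom with empirical Bayes moderation (limma 3.58.1, R 4.3.3) over all 32 libraries, with the group and the series as a block. Tests were two-sided, p-values were Benjamini-Hochberg adjusted over all genes tested, and adjusted p under 0.05 was called. The residual degrees of freedom were 18. The script was tested on simulated data. The block follows from the definition of the comparison as paired by clone and replication, each clone being a cell line of its own. It departs from the study, whose model had a term for the condition and none for clone or replication. The fit without the replicate block has the terms of that model. The deviations of same-numbered libraries from their group means correlated at 0.514, 0.628, 0.285 and 0.305 in the WT series, and each library correlated best with its own series. No replicate pair was a duplicate (smallest chi-square per degree of freedom 16.9).

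Classes, gene lists and the comparison itself were chosen with earlier results of these data known. Genes named by rule were the 8 highest and 8 lowest DEGs, the 6 largest late-only and the 6 largest recovering genes in each direction, and the 3 largest interactions in each direction (mean of at least 10 CPM, a symbol, same sign in all 4 series), with up to 4 called members of each list and members that did not pass. Of these genes 45 overlap another gene. List means over a series used log2(CPM + 0.01), the principal components log2(CPM + 0.5). Genes of the lists that were not in the table, such as UHRF1 and GRHL2, were not analysed here.

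Alternatives were TMM factors, a fit without the replicate block, all genes or only those averaging 50 counts, edgeR quasi-likelihood and DESeq2 1.42.0 Wald tests, WT libraries alone, an absolute log2 fold change of at least 1, and leaving out single libraries or series 27-2. No molecular identifiers were used, so that the floor of 3 counts and the standard errors cover counting error and the spread between libraries alone.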

Additional observations from a re-analysis of the deposited data

Results flagged for a closer look

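In 6 of 162 named values tested over the 4 series, 1 series lay apart from the others in its change from 24 to 72 h (log2), where chance alone gives about 1 in 20. Series 27-1 had 1.39 for CDC25A (others 0.601 to 0.713), 0.716 for FOSL1 (others 0.142 to 0.23) and 1.49 for PKMYT1, an inhibitory CDK1 kinase (others 0.84 to 0.923). Series 2-1 had 1.67 for KLK10 (others 0.264 to 0.474), 3.5 for KLK14 (others 1.3 to 1.37) and -0.251 for TGFB3 (others -1.02 to -0.912). None came from series 27-2.

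The change differed between genotypes by the limma-voom interaction in 19 named genes, of which values are mut minus WT on the log2 scale. More negative in mut cells were KLK10 (-2.38, adjusted p = 0.0133), IGFL1 (-2.19, 0.000152), the integrin gene ITGB3 (-1.88, 0.00422), IFI27 (-1.78, 0.0291), IL32 (-1.45, 0.0102), CLSPN (-0.828, 0.0232) and RRM2 (-0.746, 0.0101). More positive in mut cells were ACTA2 (0.454, 0.0468), LTBP3 (0.523, 0.028), SULF2 (0.672, 0.000265), TSPAN18 (0.7, 0.02), SLC2A3 (0.949, 0.0158), DCN (1.08, 0.0289), RDH16 (1.19, 0.0382), AKR1C1 (1.24, 0.000265), AKR1C2 (1.3, 5.93e-05), PSCA (1.37, 0.0164), ALDH3A1 (1.4, 0.0326) and BGN (1.57, 0.0158). These numbers come from the fit with the series block, and 1 interaction gene in all was called without it.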

How the results depend on the processing

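No named gene, and no median in the clone not used for the calls, reversed its direction under any alternative. The balance of higher and lower DEGs did turn with TMM factors, edgeR and DESeq2. With TMM factors the largest class among the lower genes changed as well. TMM factors gave 602 genes that were higher at 24 h and moved back, and DESeq2 called 321 interaction genes. With no replicate block there were 1164 DEGs, 696 higher and 468 lower, 78 and 140 late-only genes, 520 and 141 recovering genes, and 1 interaction gene. In the lists the fit without the replicate block called 12 ribosome biogenesis, 8 ATF4, 5 NRF2, 13 ribosomal protein, 2 junction and 0 keratin genes, whereas it called 35 mitosis and 35 replication genes. An absolute log2 fold change of at least 1 left 220 DEGs, 63 higher and 157 lower, with 25 and 38 late-only genes, 14 and 36 recovering genes and 35 interaction genes. Without series 27-2 there were 258 genes moving back down, 12 ribosome biogenesis and 8 NRF2 genes. In the clone not used for the calls, calls from clone 2 gave medians of 0.0706 and -0.0596, and 0.067 and -0.0794 with TMM factors. Leaving out 1 library at a time gave 1406 to 2496 DEGs, 748 to 1315 higher and 658 to 1184 lower, 91 to 140 and 183 to 380 late-only genes, 513 to 966 and 206 to 392 recovering genes, 11 to 23 ribosome biogenesis, 13 to 20 ATF4, 9 to 27 ribosomal protein, 9 to 20 junction and 3 to 11 keratin genes, and 36 to 174 interaction genes. Fewer samples enter those fits, and the cause of the other shifts was not tested. Genes near the floor of 3 counts, such as KLK14 in series 27-2, are limited by depth.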
